A study of Mus musculus with 15 samples.

Results

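The RUNX, MEF2 and DLX transcription factors and Sp7 were followed in primary mouse chondrocytes treated with 4 inhibitors or vehicle. The group was defined by gene symbol and not by any measured value: Runx1, Runx2, Runx3, Mef2a, Mef2c, Mef2d, Dlx3, Dlx5, Dlx6 and Sp7. A probe set, the group of short oligonucleotides on the array that reads 1 transcript, was included when the annotation gave it 1 of these symbols alone. This yielded 27 probe sets of 9 genes among 45037 probe sets, which named 18193 genes in all. No probe set carried the symbol Runx2, and that gene was not analysed here. Runx1 and Mef2a had 6 probe sets each, Mef2c 5, Mef2d 3, Runx3 and Dlx3 2 each, and Dlx5, Dlx6 and Sp7 1 each.

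RUNX proteins bind DNA through the runt domain together with the partner Cbfb. Runx2 and Runx3 drive growth plate chondrocytes from proliferation to hypertrophy, and Runx1 is best known from blood formation and early skeletal mesenchyme. MEF2 proteins are MADS box factors, held in check by class IIa histone deacetylases such as Hdac4, and Mef2c is required for chondrocyte hypertrophy. DLX proteins are homeodomain factors, of which Dlx5 and Dlx6 promote chondrocyte maturation and Dlx3 acts in bone, teeth and epithelium. Sp7 (osterix) is a zinc finger factor that acts downstream of Runx2 in osteoblasts and in hypertrophic chondrocytes.

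Chondrocytes were isolated from the long bones of CD1 mouse embryos at embryonic day 15.5 and grown in monolayer. The vehicle was DMSO, and the inhibitors were LY294002 against PI3K, U0126 against MEK, SB202190 and Trichostatin A against histone deacetylases. The series text places SB202190 with the MEK/ERK inhibitors, and it is generally known as an inhibitor of p38. LY294002 was used at 10 µM, and the doses of the other agents are not given in the sources used here. Each treatment had 3 arrays from separate experiments, 15 in all, and all groups shared strain, stage and culture. The labels and the methods give 24 h of treatment, whereas the series text gives 2 h. The unit throughout is the log2 signal of a probe set, so a difference of 1 is a doubling. Array medians ranged from 6.90 to 7.0.

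The cultures carried cartilage transcripts at high signal, with Col2a1, the main collagen of cartilage, at a mean log2 signal of 14.32 in DMSO and Acan, the proteoglycan aggrecan, at 12.32. Defining genes of other cell types lay below a signal of 50 in every treatment for 4 of 10 endothelial and 3 of 16 leukocyte markers, and for 1 of 16 muscle markers. The other markers of these lists reached that signal in 1 or more treatments. A signal of 50 is 5.64 on the log2 scale and lies below the array medians of 6.90 to 7.0. Reaching it therefore does not show that a marker was expressed. Of 10 osteoblast and perichondrium markers, 0 lay below a signal of 50. Their DMSO means ran from 7.68 for Fap to 13.69 for Col1a2, and Col1a1 (13.59) and Col1a2 were above Acan. The summed linear signal of 16 skeletal muscle genes ranged from 3198 to 7079 in DMSO and from 1740 to 1848 in Trichostatin A. In these bulk samples, fewer cells of a type and less RNA per cell cannot be told apart.

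Sequence around the transcription starts was taken from RefSeq promoter windows, which run from 250 bases before to 50 bases after a start on the mouse build GRCm38.p6. Of the 10 genes, 6 had 1 or more windows, 10 windows in all, and none was given for Dlx3, Dlx5, Dlx6 and Sp7. The RUNX core ACCACA, or TGTGGT on the other strand, was present in 5506 of 32851 windows (16.8%). A pair of such cores on the same strand with 2 bases between them was present in 7 windows (0.0213%), and the pair with the letters found in Runx1 was present in 3 windows, 1 each of Runx1, Runx2 and Runx3. The MEF2 motif was found in 1047 windows (3.19%), among them that of Mef2a. The stretches below show these matches in members of the families themselves and in Mmp13, a collagenase gene of hypertrophic chondrocytes and a known RUNX target. Capitals mark the match, and each stretch is written 5′ to 3′ on the strand of the gene.
Runx1, chr16:92826025-92826054, minus strand, match from 29 to 42 bases after the start: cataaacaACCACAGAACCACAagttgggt
Runx3, chr4:135120503-135120532, plus strand, match from -134 to -121 relative to the start: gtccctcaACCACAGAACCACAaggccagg
Mef2a, chr7:67372841-67372870, minus strand, match across the start: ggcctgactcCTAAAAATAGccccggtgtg
Mmp13, chr9:7272384-7272413, plus strand, match from -118 to -113 relative to the start: attctgccacaaACCACActtaggaagaaa
The arrays measured no binding at these stretches.

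Of the 27 probe sets, 26 reached a mean signal of 50 in at least 1 of the treatments compared and were tested. The other, Mef2a 1425426_a_at, lay between 4.89 and 5.31 on the log2 scale on all arrays. The test was limma, fitted to all probe sets that reached this signal, and a probe set was called at an adjusted p under 0.05. With 3 arrays against 3, an exact permutation test of a single gene could not fall below p = 0.1 (two-sided), so calls rest on the spread shared across probe sets. Over the 5 treatments, 19 of the 26 probe sets differed by the F test, against 44.5% of all probe sets tested, and by the most abundant probe set this held for 7 of the 9 genes. Dlx3 and Dlx6 were the exceptions, with adjusted p of 0.211 and 0.9997. The other Dlx3 probe set, 1422037_at, passed the F test (adjusted p = 0.0285).

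**Figure D1:**
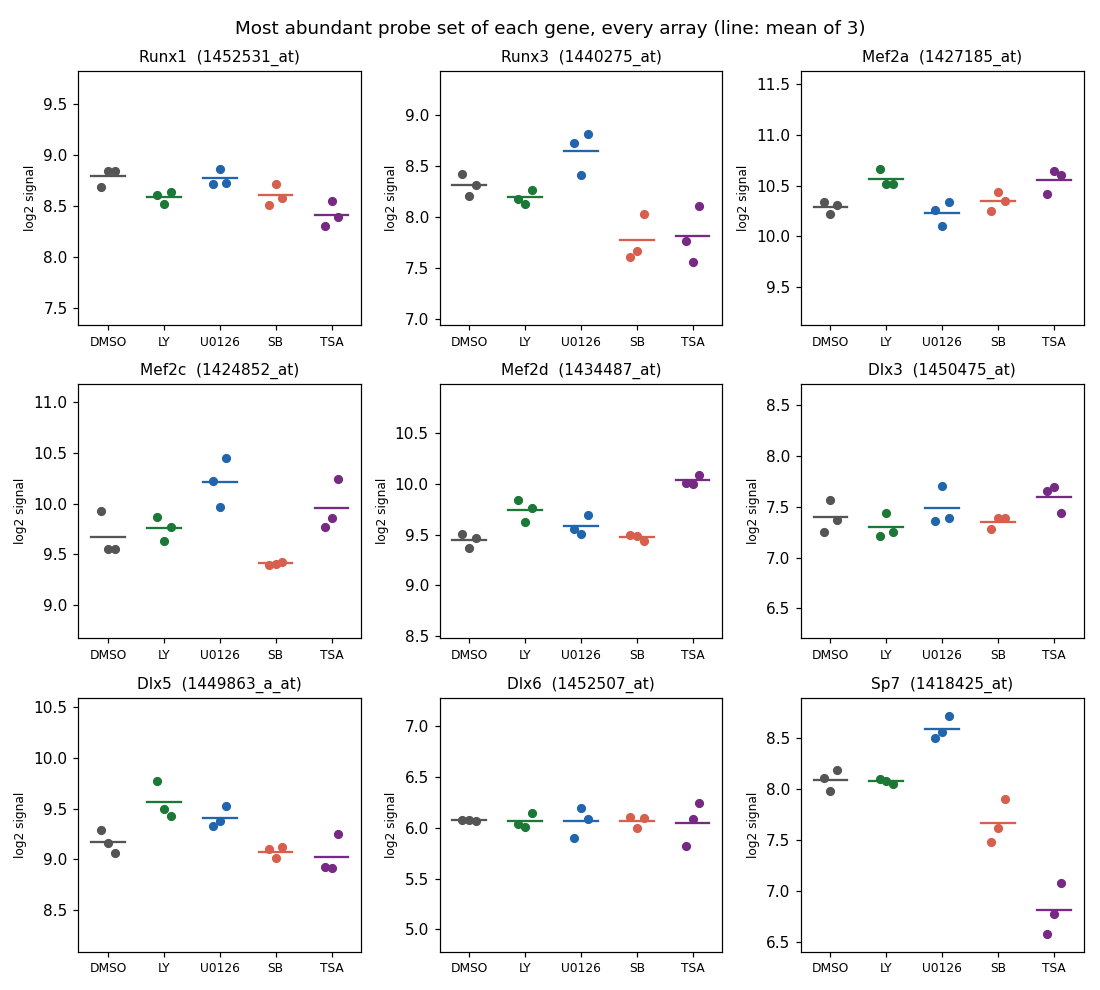
Log2 signal of the most abundant probe set of each of the 9 genes on all 15 arrays, by treatment (LY, LY294002; SB, SB202190; TSA, Trichostatin A). Points are arrays, lines are means of 3, and every panel spans the same range of log2 units. Sp7 shows the widest range, from 6.58 with Trichostatin A to 8.72 with U0126, and the Dlx6 arrays lie between 5.82 and 6.24.

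Trichostatin A altered the largest number of these genes. Against DMSO, 8 of the 26 probe sets (30.8%) were down-regulated and 5 (19.2%) up-regulated, whereas 20.6% of all probe sets tested were lower and 23.0% higher. The down-regulated ones were the 6 probe sets of Runx1, 1 of Runx3 and that of Sp7. The up-regulated ones belonged to Mef2a and Mef2d. By the most abundant probe set, 3 of the 9 genes were lower and 2 higher, and the share of all genes was not counted. The median difference of the 26 was -0.06, as was that of all probe sets tested (-0.06).

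Sp7 showed the largest change of the group. Its log2 signals were 8.11, 7.98 and 8.19 in DMSO, 8.10, 8.08 and 8.05 in LY294002, 8.50, 8.56 and 8.72 in U0126, 7.48, 7.62 and 7.90 in SB202190, and 6.58, 6.77 and 7.08 in Trichostatin A. The Trichostatin A arrays lay below all other arrays and the U0126 arrays above all others. Trichostatin A lowered Sp7 2.43-fold (log2 difference -1.28, SE 0.12, adjusted p = 2.28e-07), and this call held in all 25 alternatives computed. In order of the means, U0126 (8.59 ± 0.113, SD, n = 3) was followed by DMSO (8.09 ± 0.106), LY294002 (8.08 ± 0.0251), SB202190 (7.67 ± 0.215) and Trichostatin A (6.81 ± 0.251). Of the neighbours in this order, DMSO and LY294002 did not differ beyond their spread (adjusted p = 0.957). LY294002 exceeded SB202190 on all arrays, by 0.41 (SE 0.12), with an adjusted p of 0.0719. With the replicate number as a block, LY294002 and SB202190 differed (adjusted p = 0.00847).

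Runx1 was down-regulated by Trichostatin A at each of its probe sets. The most abundant, 1452531_at, read 8.69, 8.84 and 8.84 in DMSO, 8.61, 8.52 and 8.64 in LY294002, 8.72, 8.86 and 8.73 in U0126, 8.51, 8.72 and 8.58 in SB202190, and 8.30, 8.55 and 8.39 in Trichostatin A. The Trichostatin A arrays were below those of DMSO and overlapped those of LY294002 and SB202190. The difference from DMSO was -0.38 (SE 0.09, 1.30-fold lower, adjusted p = 0.00215).

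The other Runx1 probe sets fell by more or by less. Probe set 1422865_at read 7.62, 7.24 and 7.36 in DMSO, 7.73, 7.47 and 7.37 in LY294002, 7.28, 7.20 and 7.36 in U0126, 7.04, 6.95 and 6.99 in SB202190, and 6.43, 6.44 and 6.53 in Trichostatin A. Probe set 1422864_at read 8.46, 7.88 and 7.75 in DMSO, 8.36, 8.08 and 7.58 in LY294002, 7.82, 7.60 and 7.58 in U0126, 7.75, 7.58 and 7.30 in SB202190, and 7.29, 6.96 and 6.81 in Trichostatin A. Both were lowest with Trichostatin A without overlap with another treatment, by -0.94 (adjusted p = 1.4e-06) and -1.01 (adjusted p = 0.000479) from DMSO. Probe set 1440878_at read 7.65, 7.40 and 7.38 in DMSO, 8.11, 7.68 and 7.55 in LY294002, 7.60, 7.32 and 7.37 in U0126, 7.54, 7.40 and 7.26 in SB202190, and 6.75, 6.66 and 6.87 in Trichostatin A. It was 1.64-fold lower than in DMSO (difference -0.72, SE 0.13, adjusted p = 0.000255).

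The remaining Runx1 probe sets moved least. Probe set 1427650_a_at read 7.76, 7.60 and 7.63 in DMSO, 7.84, 7.68 and 7.60 in LY294002, 7.72, 7.68 and 7.55 in U0126, 7.64, 7.60 and 7.58 in SB202190, and 7.33, 7.48 and 7.27 in Trichostatin A. Probe set 1452530_a_at read 7.34, 7.58 and 7.29 in DMSO, 7.60, 7.68 and 7.42 in LY294002, 7.60, 7.52 and 7.57 in U0126, 7.43, 7.47 and 7.29 in SB202190, and 7.33, 7.04 and 6.99 in Trichostatin A. The first fell by 0.30 without overlap with DMSO (adjusted p = 0.0101), and the second fell by 0.28 with overlapping arrays (adjusted p = 0.0381). The second call was lost without DMSO replicate 2, Trichostatin A replicate 2 or Trichostatin A replicate 3, with adjusted p between 0.109 and 0.187, and when arrays were centred on their medians (adjusted p = 0.0766). As the mean of its 6 probe sets, Runx1 was also called against LY294002 (difference -0.67, adjusted p = 6.1e-06), which its most abundant probe set was not (-0.17, adjusted p = 0.135).

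Runx3, the RUNX member that shares the maturation role in cartilage, fell at 1 of 2 probe sets. Probe set 1440275_at read 8.42, 8.21 and 8.32 in DMSO, 8.18, 8.13 and 8.27 in LY294002, 8.73, 8.41 and 8.82 in U0126, 7.61, 7.67 and 8.03 in SB202190, and 7.76, 7.56 and 8.11 in Trichostatin A. The SB202190 and Trichostatin A arrays overlapped each other and lay below those of DMSO. Trichostatin A lowered it by 0.51 (SE 0.14, adjusted p = 0.00755). The call was lost without replicate 1 in every treatment (adjusted p = 0.0835) and without replicate 2 in every treatment (adjusted p = 0.0569). The other Runx3 probe set, 1421467_at, ranged from 7.37 to 7.80 over the 15 arrays and did not pass the F test over treatments (adjusted p = 0.565).

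Mef2d and Mef2a rose with Trichostatin A while Mef2c did not pass the test. Mef2d 1434487_at read 9.51, 9.37 and 9.47 in DMSO, 9.84, 9.62 and 9.76 in LY294002, 9.56, 9.51 and 9.69 in U0126, 9.50, 9.49 and 9.44 in SB202190, and 10.01, 10 and 10.09 in Trichostatin A. Every Trichostatin A array was above every other array, 1.5-fold over DMSO (difference 0.58, SE 0.08, adjusted p = 1.45e-05). The other Mef2d probe sets, 1437300_at and 1421388_at, differed from DMSO by 0.13 (adjusted p = 0.232) and -0.16 (adjusted p = 0.198), so the probe sets of this gene disagreed. As a mean of its 3 probe sets, Mef2d was not called against LY294002 (difference 0.08, adjusted p = 0.263), where the most abundant probe set was (0.29, adjusted p = 0.00718).

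Mef2a rose at 4 of its 5 tested probe sets. The most abundant, 1427185_at, read 10.34, 10.22 and 10.31 in DMSO, 10.66, 10.52 and 10.52 in LY294002, 10.26, 10.10 and 10.34 in U0126, 10.25, 10.44 and 10.35 in SB202190, and 10.42, 10.64 and 10.60 in Trichostatin A. Both the LY294002 and the Trichostatin A arrays were above those of DMSO. Probe set 1452347_at read 9.91, 9.78 and 9.94 in DMSO, 10.12, 10.01 and 10.03 in LY294002, 9.87, 9.66 and 10 in U0126, 9.79, 9.97 and 10.01 in SB202190, and 10.05, 10.10 and 10.30 in Trichostatin A. Against DMSO these rose by 0.26 (adjusted p = 0.0259) and 0.28 (adjusted p = 0.0334).

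The 2 other Mef2a probe sets that rose had more spread. Probe set 1421252_a_at read 8.69, 8.35 and 8.65 in DMSO, 8.87, 8.86 and 8.77 in LY294002, 8.53, 8.41 and 8.61 in U0126, 8.70, 8.70 and 8.65 in SB202190, and 8.66, 8.80 and 9.13 in Trichostatin A. Probe set 1427186_a_at read 8.62, 8.02 and 8.47 in DMSO, 8.91, 8.64 and 8.70 in LY294002, 8.40, 7.99 and 8.35 in U0126, 8.60, 8.67 and 8.50 in SB202190, and 8.55, 8.69 and 9.04 in Trichostatin A. Their arrays overlapped between Trichostatin A and DMSO, at differences of 0.30 (adjusted p = 0.041) and 0.39 (adjusted p = 0.0484). All 4 Mef2a calls were lost without DMSO replicate 2 or without Trichostatin A replicate 3, with adjusted p between 0.0798 and 0.275, and 3 of them without Trichostatin A replicate 2. The last 2 probe sets were also lost without LY294002 replicate 2 or any 1 SB202190 array, and 1427186_a_at without DMSO replicate 3, LY294002 replicate 3 or U0126 replicate 3, with adjusted p from 0.0505 to 0.0599. After quantile normalization 1427185_at (adjusted p = 0.177) and 1452347_at (adjusted p = 0.156) were not called. As the mean of its 6 probe sets, Mef2a differed by 0.16 (adjusted p = 0.0686). The fifth, 1442623_at, differed by -0.11 (adjusted p = 0.374).

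Markers of other cell types also moved with Trichostatin A. Of the muscle genes tested, 11 of 14 fell and none rose. Mef2c, a gene also known from muscle, differed by 0.14 to 0.30 at its 5 probe sets, none of which passed (adjusted p from 0.0924 to 0.50). Of the leukocyte genes, 11 of 13 fell and 1 rose, with a summed signal of 2734 to 3060 against 3138 to 4206 in DMSO. The gene that rose was Cd68, from a mean of 7.54 in DMSO to 9.76. Ptprc, the pan-leukocyte surface marker, was 1 of 3 among the 16 leukocyte markers below a signal of 50 in every treatment. Others were well above it in DMSO, such as Laptm5 (9.96), Lyz2 (9.05) and Csf1r (8.76). Of 10 osteoblast and perichondrium genes, 8 fell and 1 rose, with a summed signal of 29421 to 33493 against 40104 to 47488. Of 7 osteoclast genes 1 fell, the protease gene Ctsk (-2.27), and the summed signal was 1119 to 1149 against 2259 to 2284. Of 9 epithelial genes 3 rose and 1 fell, with a summed signal of 4510 to 5004 against 2794 to 3130. Of 6 endothelial genes 1 rose and none fell, and of 6 neural genes 2 rose and 1 fell. The part of these cells in the Runx1, Runx3 and Sp7 results was not tested.

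**Figure D2:**
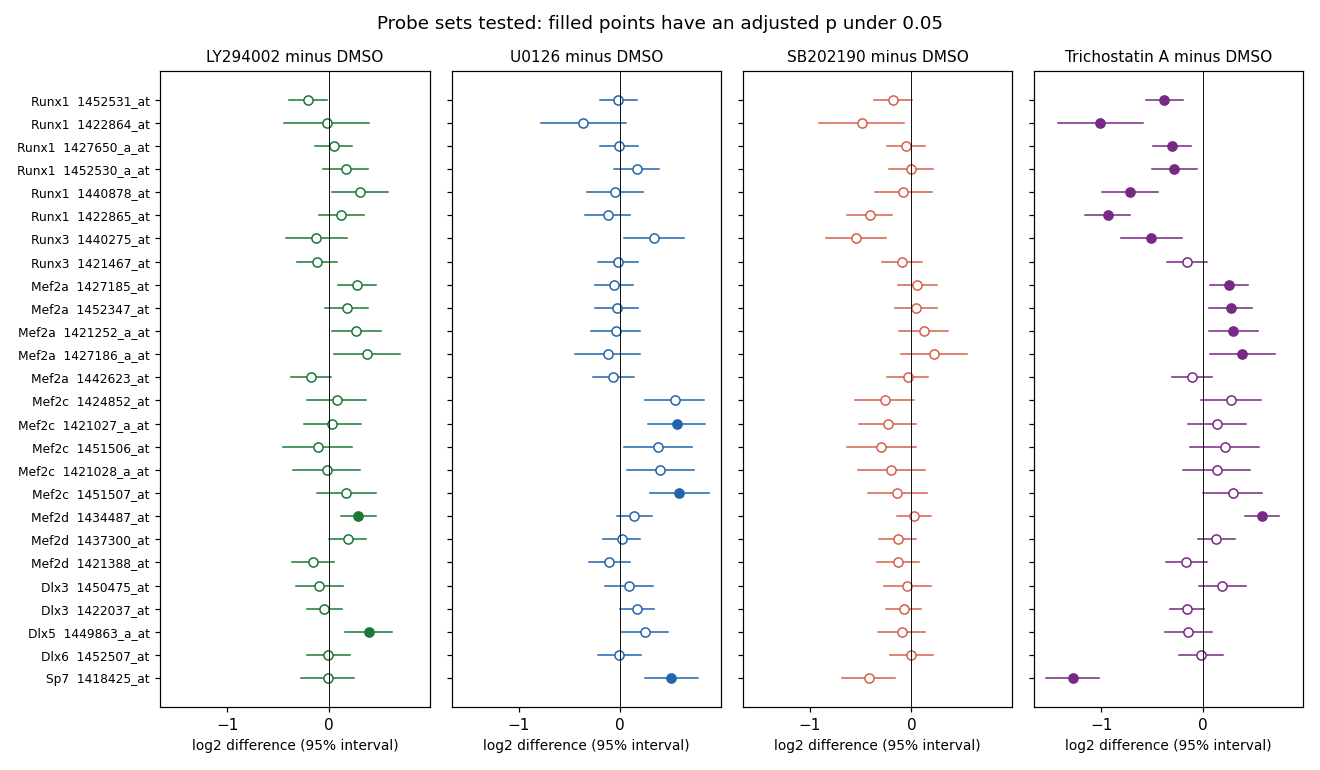
Log2 difference of each treatment from DMSO for the 26 probe sets tested, with 95% intervals, in 4 panels on the same scale; filled points passed an adjusted p under 0.05. The fit is the one without the replicate block. Filled points number 2 with LY294002, 3 with U0126, none with SB202190 and 13 with Trichostatin A, where the Runx1 and Sp7 probe sets lie to the left of 0.

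LY294002 altered few of these genes. Against DMSO, 2 of 26 probe sets (7.69%) were up-regulated and none down-regulated, where 6.83% of all probe sets were higher and 1.78% lower. The higher ones made up 79.3% of all calls with LY294002, 62.1% after quantile normalization and 89.2% when arrays were centred on their medians. The comparisons with DMSO share the same 3 DMSO arrays.

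The up-regulated ones were Dlx5 and Mef2d 1434487_at. Dlx5 read 9.29, 9.16 and 9.06 in DMSO, 9.77, 9.50 and 9.43 in LY294002, 9.33, 9.38 and 9.52 in U0126, 9.10, 9.01 and 9.12 in SB202190, and 8.92, 8.91 and 9.25 in Trichostatin A. The LY294002 arrays lay above those of DMSO and overlapped those of U0126. Dlx5 was 1.31-fold higher with LY294002 (difference 0.39, SE 0.11, adjusted p = 0.0342), and Mef2d was 1.22-fold higher (0.29, SE 0.08, adjusted p = 0.0338). Both calls were lost without DMSO replicate 2, DMSO replicate 3 or LY294002 replicate 1, the Dlx5 call also without LY294002 replicate 2 and the Mef2d call without LY294002 replicate 3, with adjusted p between 0.06 and 0.174. Mef2d was not called after quantile normalization (adjusted p = 0.114) or as the mean of its probe sets (difference 0.11, adjusted p = 0.225).

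Same-numbered arrays deviated together in DMSO and each kinase inhibitor, and the numbers were taken to pair these arrays, although the labels give numbers only. With the replicate number as a block, 4 probe sets were up-regulated by LY294002, Mef2a 1427185_at (difference 0.28, adjusted p = 0.0356) and Runx1 1440878_at (0.31, adjusted p = 0.0348) in addition to those above. Over all probe sets the block raised the number of calls from 2978 to 6370 with LY294002. Markers of other cell types moved as well: 3 of 9 epithelial genes fell and none rose, with a summed signal of 1998 to 2468 against 2794 to 3130 in DMSO, and 1 of 7 osteoclast genes fell, with a summed signal of 1913 to 1998 against 2259 to 2284. Their part in the Dlx5 and Mef2d results was not tested. Sp7 differed from DMSO by -0.01 with LY294002 (95% interval -0.27 to 0.25) and Mef2c 1424852_at by 0.07 (-0.22 to 0.37).

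With U0126, Sp7 and some of the Mef2c probe sets were up-regulated. Against DMSO, 3 of 26 probe sets (11.5%) were up-regulated and none down-regulated, where 1.14% of all probe sets tested were higher and 0.792% lower. These were Mef2c 1421027_a_at and 1451507_at, and Sp7.

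The U0126 arrays of Mef2c were the highest on average at every probe set. The most abundant, 1424852_at, read 9.93, 9.55 and 9.55 in DMSO, 9.87, 9.63 and 9.77 in LY294002, 10.22, 9.97 and 10.45 in U0126, 9.40, 9.41 and 9.43 in SB202190, and 9.77, 9.86 and 10.24 in Trichostatin A. Probe set 1421027_a_at read 9.55, 9.30 and 9.16 in DMSO, 9.57, 9.26 and 9.29 in LY294002, 10.05, 9.71 and 9.92 in U0126, 9.18, 9.20 and 8.92 in SB202190, and 9.33, 9.37 and 9.73 in Trichostatin A. For both, U0126 lay above DMSO and LY294002 on all arrays. Probe set 1451507_at read 8.50, 8.04 and 8.28 in DMSO, 8.54, 8.41 and 8.39 in LY294002, 8.84, 8.77 and 8.97 in U0126, 8.10, 8.22 and 8.08 in SB202190, and 8.41, 8.36 and 8.94 in Trichostatin A. Its U0126 arrays likewise lay above DMSO and LY294002, and overlapped those of Trichostatin A.

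Mef2c was 1.47-fold higher at 1421027_a_at (difference 0.56, SE 0.13, adjusted p = 0.0409) and 1.5-fold higher at 1451507_at (0.58, SE 0.14, adjusted p = 0.0349). At 1424852_at the difference was 0.54 (SE 0.14, adjusted p = 0.0606), and this was called with the replicate block (adjusted p = 0.0123). As the mean of its 5 probe sets, Mef2c differed by 0.49 (adjusted p = 0.0578) and was not called. Sp7 was 1.42-fold higher with U0126 (0.50, SE 0.12, adjusted p = 0.0447). These 3 calls were lost without DMSO replicate 2, DMSO replicate 3, LY294002 replicate 2, U0126 replicate 1 or U0126 replicate 3, with adjusted p from 0.0530 to 0.214. Without SB202190 replicate 1, both Mef2c calls were lost (adjusted p = 0.0573 and 0.0523), and without SB202190 replicate 2 the calls of Mef2c 1421027_a_at and Sp7. Sp7 was also lost without DMSO replicate 1, LY294002 replicate 3, U0126 replicate 2 or Trichostatin A replicate 2, and Mef2c 1451507_at without U0126 replicate 2. With the arrays of DMSO and U0126 alone, none of the 3 was called (adjusted p = 0.104 and 0.0784 for Mef2c and 0.0588 for Sp7). With the replicate block 5 probe sets passed, and the fifth was Runx1 1422864_at, lower by 0.36 (adjusted p = 0.0417). The block raised the calls over all probe sets from 667 to 1507.

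SB202190 gave no call among the 26 probe sets in the fit without the replicate block, where 1.23% of all probe sets were higher and 0.706% lower. At an unadjusted p under 0.05, 4 of the 26 passed, and the share of all probe sets at that threshold was not computed. With the replicate block 4 were down-regulated, and these were Runx3 1440275_at (difference -0.55, adjusted p = 0.00266), Runx1 1422864_at (-0.49, adjusted p = 0.00616), Runx1 1422865_at (-0.41, adjusted p = 0.0111) and Sp7 (-0.42, adjusted p = 0.0113). Without the block their adjusted p were 0.0586, 0.295, 0.0543 and 0.10. On every array of these 4 probe sets SB202190 lay below DMSO. At Runx1 1422864_at the margin was narrow, with the highest SB202190 array at 7.749 and the lowest DMSO array at 7.752. The share of all probe sets separated in this way was not counted. The block raised the calls over all probe sets from 669 to 1905. Dlx5 differed by -0.10 (95% interval -0.33 to 0.14) and Mef2d 1434487_at by 0.03 (-0.14 to 0.20).

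U0126 and SB202190 were compared with each other in the same fit over 15 arrays, and here the Mef2c, Runx3 and Sp7 signals differed. Of the 26 probe sets, 7 (26.9%) differed, all of them higher with U0126, where 5.22% of all probe sets were called in either direction. They were the 5 probe sets of Mef2c, Runx3 1440275_at and Sp7, so 3 of the 9 genes had a call. Probe sets of 1 gene are not independent readings, and the share of all genes was not counted. Sp7 was 1.90-fold higher with U0126 than with SB202190 (difference 0.93, SE 0.12, adjusted p = 0.000164) and Runx3 1.84-fold (0.88, SE 0.14, adjusted p = 0.000947). Mef2c was 1.74-fold higher at 1424852_at (0.80, SE 0.14, adjusted p = 0.00178), 1.73-fold at 1421027_a_at (0.79, adjusted p = 0.00147) and 1.65-fold at 1451507_at (0.72, adjusted p = 0.00379). None of the U0126 arrays overlapped those of SB202190 at these probe sets. That is to be looked for in probe sets already called, and the share of all probe sets so separated was not counted. The calls of Sp7, Runx3 and these 3 Mef2c probe sets held in all 26 alternatives computed.

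The other Mef2c probe sets differed in the same direction with more spread. Probe set 1451506_at read 8.82, 8.49 and 8.70 in DMSO, 8.53, 8.50 and 8.66 in LY294002, 9.04, 8.73 and 9.35 in U0126, 8.29, 8.33 and 8.50 in SB202190, and 8.62, 8.77 and 9.28 in Trichostatin A. Probe set 1421028_a_at read 8.66, 8.32 and 8.34 in DMSO, 8.54, 8.36 and 8.34 in LY294002, 8.92, 8.45 and 9.12 in U0126, 8.22, 8.32 and 8.19 in SB202190, and 8.41, 8.42 and 8.89 in Trichostatin A. U0126 exceeded SB202190 on all arrays, by 0.67 (adjusted p = 0.0196) and 0.59 (adjusted p = 0.035). Both calls were lost without U0126 replicate 1, U0126 replicate 3, SB202190 replicate 1 or SB202190 replicate 2, and the second also without SB202190 replicate 3, with adjusted p between 0.0527 and 0.212.

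**Figure D3:**
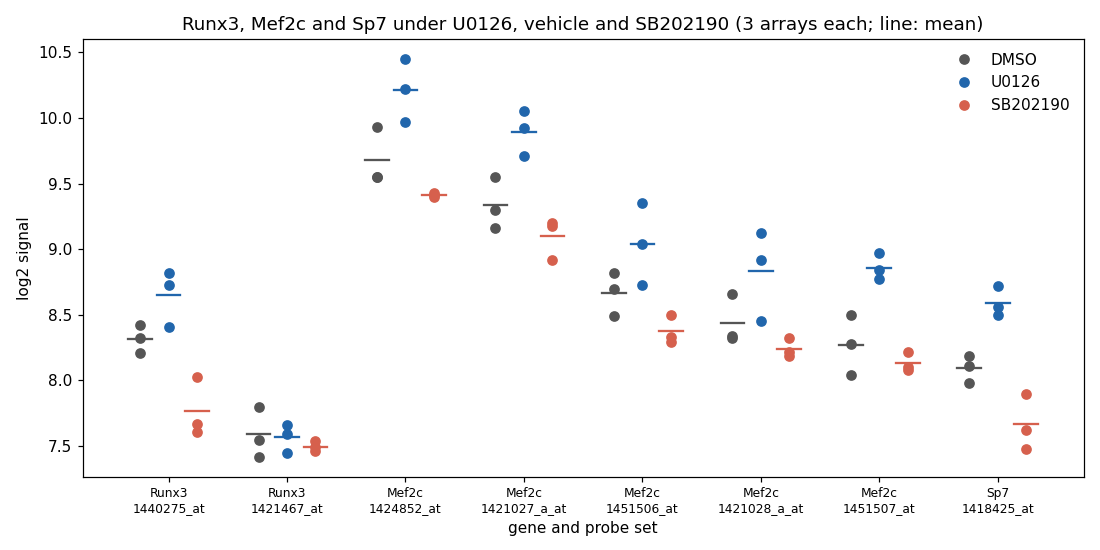
Log2 signal of the Runx3, Mef2c and Sp7 probe sets on the arrays of DMSO, U0126 and SB202190, with lines at the means of 3. At all but Runx3 1421467_at the U0126 points lie above the SB202190 points without overlap, as for Sp7 with 8.50 to 8.72 against 7.48 to 7.90.

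Markers of other cell types were compared between the same arrays. None of 15 muscle genes was called between U0126 and SB202190, and their summed signals were 4174 to 8737 and 4871 to 8283. Of 10 osteoblast and perichondrium genes, 3 were higher and 1 lower with U0126, with summed signals of 45918 to 50314 against 38527 to 40887. Of 12 leukocyte and of 9 epithelial genes, 1 each was higher and 1 lower. Of 7 osteoclast and of 6 endothelial genes 1 each was lower, and no neural gene was called. Against DMSO, 1 of 9 epithelial genes was lower with U0126, and no other list had a call. With SB202190, 1 leukocyte, 1 osteoclast and 1 osteoblast gene were higher and 1 epithelial gene was lower. The part of these cells in the Sp7, Runx3 and Mef2c differences was not tested.

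LY294002 was compared with U0126 and with SB202190 in the same way. Against U0126, 3 of 26 (11.5%) differed, where 5.64% of all probe sets did: Mef2a 1427185_at was higher with LY294002 by 0.33 (adjusted p = 0.0368), Mef2c 1421027_a_at was lower by -0.52 (adjusted p = 0.0301) and Sp7 by -0.52 (adjusted p = 0.0201). Against SB202190, 3 of 26 differed and 4.60% of all: Dlx5 was higher by 0.49 (adjusted p = 0.0152), Runx1 1422865_at by 0.53 (adjusted p = 0.0063) and Mef2d 1437300_at by 0.32 (adjusted p = 0.0437). The last read 9.56, 9.42 and 9.63 in DMSO, 9.79, 9.68 and 9.70 in LY294002, 9.45, 9.62 and 9.59 in U0126, 9.37, 9.31 and 9.53 in SB202190, and 9.70, 9.59 and 9.72 in Trichostatin A. With the replicate block the member counts were 10 and 8. The shares of all probe sets above are of the fit without the block. With the block they were not computed for these comparisons, so 10 and 8 have no background beside them. The Runx1 1422865_at call held without any 1 array. The Mef2a call was lost without any 1 LY294002 array, U0126 replicate 1 or 2, or SB202190 replicate 3 (adjusted p from 0.0505 to 0.179), the Mef2c call without LY294002 replicate 2 or 3 or U0126 replicate 1 or 3 (0.0777 to 0.111) and the Sp7 call without LY294002 replicate 1 or 2 or U0126 replicate 2 or 3 (0.0579 to 0.0940). The Dlx5 call was lost without LY294002 replicate 1 or SB202190 replicate 1 or 2 (0.0529 to 0.0793), and the Mef2d call without any 1 LY294002 array, U0126 replicate 2 or 3, Trichostatin A replicate 1, or SB202190 replicate 1 or 2 (0.0504 to 0.208).

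Trichostatin A differed from each kinase inhibitor. Against LY294002, 10 of 26 (38.5%) differed and 40.0% of all probe sets, against U0126 16 of 26 (61.5%) and 42.6%, and against SB202190 12 of 26 (46.2%) and 38.3%. Sp7 was lower with Trichostatin A in all 3 comparisons, 2.41-fold against LY294002, 3.44-fold against U0126 and 1.81-fold against SB202190 (adjusted p = 2.66e-07, 4.16e-09 and 2.37e-05). Mef2d 1434487_at was higher in all 3, by 0.29, 0.44 and 0.55. The Sp7 and Mef2d calls held without any 1 array. Runx1 was lower at 5, 6 and 5 of its 6 probe sets. Against U0126 the calls of Runx1 1422864_at and 1427650_a_at were lost without U0126 replicate 1 or Trichostatin A replicate 3 (adjusted p from 0.0540 to 0.0683). Against SB202190 the calls of Runx1 1440878_at and 1422865_at held without any 1 array, and those of 1422864_at, 1427650_a_at and 1452530_a_at did not, for example without Trichostatin A replicate 3 or SB202190 replicate 1 or 2 (adjusted p up to 0.184). Between Trichostatin A and U0126 or SB202190, deviations of same-numbered arrays correlated above 0.1 for all 3 numbers. For replicate 3 they did not with DMSO (0.0288) or LY294002 (-0.110). With the block, fitted to all 15 arrays, 11 member probe sets differed from LY294002, 16 from U0126 and 15 from SB202190. Against SB202190 those in addition were Runx1 1452531_at (-0.19, adjusted p = 0.0499), Mef2a 1452347_at (0.23, adjusted p = 0.0343) and Dlx3 1450475_at (0.23, adjusted p = 0.0260). The share of all probe sets with the block was not computed for these comparisons.

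The DLX genes were compared in the same way. Dlx5 was lower with Trichostatin A than with LY294002 by -0.54 (adjusted p = 0.000691) and than with U0126 by -0.38 (adjusted p = 0.00865). Dlx3 1450475_at read 7.25, 7.57 and 7.37 in DMSO, 7.21, 7.44 and 7.25 in LY294002, 7.36, 7.70 and 7.39 in U0126, 7.28, 7.39 and 7.39 in SB202190, and 7.65, 7.69 and 7.44 in Trichostatin A. Its arrays overlapped in all comparisons with DMSO, and it passed against LY294002 with Trichostatin A (difference 0.29, adjusted p = 0.0471), a call lost without any 1 of 9 arrays (DMSO replicate 3, LY294002 replicates 1 and 3, U0126 replicate 3, Trichostatin A replicates 1 and 2 and each SB202190 array) and as the mean of both probe sets (adjusted p = 0.406).

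The other Dlx3 probe set ran the other way. Probe set 1422037_at read 7.16, 7.32 and 7.20 in DMSO, 7.10, 7.19 and 7.25 in LY294002, 7.29, 7.50 and 7.37 in U0126, 7.21, 7.13 and 7.10 in SB202190, and 7.09, 7.06 and 7.04 in Trichostatin A. It was lower with Trichostatin A than with U0126 (difference -0.32, adjusted p = 0.00312), so the Dlx3 probe sets disagreed. Dlx6 read 6.08, 6.08 and 6.07 in DMSO, 6.04, 6.01 and 6.15 in LY294002, 5.90, 6.20 and 6.09 in U0126, 6.11, 6.0 and 6.10 in SB202190, and 5.82, 6.09 and 6.24 in Trichostatin A. No comparison called Dlx6, and its largest difference from DMSO was -0.02 (95% interval -0.24 to 0.20). All Dlx6 arrays lay below the array medians of 6.90 to 7.0. The Dlx3 probe sets, with means of 7.43 and 7.20 over the 15 arrays, lay little above them. At such low signals a flat or conflicting reading says little about these genes.

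Partners and regulators of the RUNX proteins were followed with a list of 20 genes, of which 19 were measured. For this list and those after it, the shares of all probe sets called were 23.0% higher and 20.6% lower with Trichostatin A, 6.83% and 1.78% with LY294002, 1.14% and 0.792% with U0126 and 1.23% and 0.706% with SB202190, and 5.22% in either direction between U0126 and SB202190. With Trichostatin A, 8 rose, 6 fell and 5 did not pass, with a median difference of 0.13 against -0.06 for all probe sets tested. Cbfb, the shared DNA-binding partner of the RUNX proteins, fell by 0.93. The largest changes were in Zfp521, a zinc finger antagonist of Runx2 (-1.54, adjusted p = 8.68e-07), Runx1t1, a corepressor of the ETO family (-1.28, adjusted p = 0.000113), and Hey1, a Notch target and repressor (1.21, adjusted p = 6.8e-09). With LY294002, 4 rose and none fell, led by the ubiquitin ligase gene Smurf2 (0.49), the coactivator Wwtr1 (0.41) and the corepressor Tle4 (0.41). Twist2, a bHLH inhibitor of Runx2, was the single gene called with U0126 (-0.42, adjusted p = 0.0302) and with SB202190 (0.50, adjusted p = 0.0111), and it differed between these inhibitors by -0.92 (adjusted p = 1.61e-05). With the replicate block, 8 rose with LY294002 and 4 with SB202190. The shares above are of the fit without the block. Over all probe sets the block raised the calls from 2978 to 6370 with LY294002, 667 to 1507 with U0126 and 669 to 1905 with SB202190. Shares by direction were not computed with the block, so block counts of this list and those after it have no matching background.

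Regulators of MEF2 were followed with 19 genes, all of them measured. With Trichostatin A, 9 rose and 2 fell, with a median difference of 0.21. Sik2, a kinase that phosphorylates class IIa histone deacetylases, rose by 1.45 (adjusted p = 4.57e-10), Prkd1, protein kinase D1, by 1.01 (adjusted p = 4.59e-07) and Mapk14, the p38 alpha kinase, by 0.89 (adjusted p = 1.75e-05). With LY294002, 4 rose and none fell, led by Sik2 (0.55), the calcineurin subunit gene Ppp3ca (0.48) and Prkd1 (0.38), and with the block 7 rose. Hdac5, a class IIa deacetylase, was the single gene called with U0126 (0.37, adjusted p = 0.0107). Map2k6, the kinase that activates p38, was the single gene called with SB202190 (1.22, 2.33-fold, adjusted p = 0.000105), and 3 were called with the block.

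Other homeobox genes of the DLX and MSX families and Maged1, a protein partner of both, made a list of 6. With Trichostatin A 3 rose and 1 fell: Dlx2 rose by 1.25 (adjusted p = 1.57e-06), Msx2 rose by 1.08 (adjusted p = 4.5e-09), and Maged1 fell by 0.57 (adjusted p = 6.59e-05). Maged1 was the single gene called with LY294002 (0.52, adjusted p = 0.00241) and with U0126 (0.43, adjusted p = 0.0156), and it did not pass with SB202190 (0.22, adjusted p = 0.291).

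Genes of hypertrophy and mineralization, several of them known RUNX2 and SP7 targets, were measured for 17 of 21 on the list. With Trichostatin A, 11 fell and 1 rose, with a median difference of -0.55. Panx3, a hemichannel gene of prehypertrophic cells, fell 7.10-fold (difference -2.83), Mmp13 fell 5.94-fold (-2.57), and Pth1r, the receptor for parathyroid hormone and its related peptide, fell 3.80-fold (-1.92). The gene that rose was Tnfsf11, which encodes the osteoclast factor RANKL. With SB202190, 5 fell, led by Tnfsf11 (-1.23, adjusted p = 0.00856), its decoy receptor Tnfrsf11b (-0.82) and Foxa2 (-0.60), the median difference was -0.54, and with the block 11 fell.

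With U0126, 2 of these genes rose, Ihh (1.08, adjusted p = 0.0225), the hedgehog ligand of prehypertrophic cells, and Alpl. The 2 that fell were Tnfsf11 (-1.48, adjusted p = 0.00142) and the pyrophosphate transporter gene Ank (-0.92, adjusted p = 3.67e-05). With the block 6 rose. With LY294002, Galnt3 (-0.47, adjusted p = 0.00553) and Ank (-0.35, adjusted p = 0.0285) fell and none rose, and with the block 4 fell and 2 rose. Between U0126 and SB202190, 9 were higher and 1 lower with U0126, led by Panx3 (1.82), Col10a1, the collagen of hypertrophic cartilage (1.76), and Ihh (1.57), with a median difference of 0.49 against 0.01 for all probe sets tested.

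**Figure D4:**
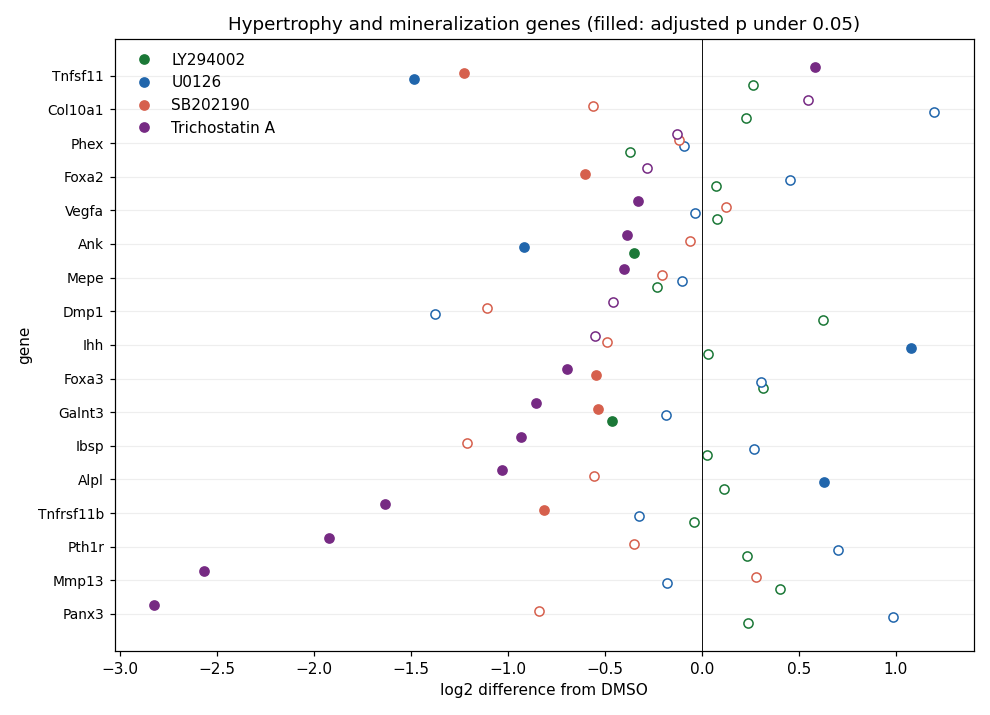
Log2 difference from DMSO of the 17 hypertrophy and mineralization genes measured, ordered by the difference with Trichostatin A, with 1 point per treatment; filled points passed an adjusted p under 0.05. Trichostatin A points lie left of 0 for 15 of the genes, down to -2.83 for Panx3.

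The cartilage matrix and SOX genes were measured for 15 of 16 on the list. All 15 fell with Trichostatin A, Matn3 fell by 3.32, and the list had a median difference of -1.14. With LY294002, 4 rose, led by Comp (0.77), Matn1 (0.76) and Col9a2 (0.62). With U0126, 4 rose, led by Col9a2 (0.94), Acan (0.73) and Col9a3 (0.73). None passed with SB202190, where the largest difference was in Matn3 (-0.67, adjusted p = 0.0508), although 2 fell with the block. With the block 7 rose with LY294002 and 8 with U0126. Between U0126 and SB202190, 9 were higher with U0126 and none lower.

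The genes whose signal was most like that of a member were sought by Pearson correlation over the 15 arrays among 16107 genes. The arrays share treatments and culture replicates, and these values are descriptions. For Sp7 they were Panx3 (r = 0.98), Phyh (r = 0.98), a peroxisomal hydroxylase gene, and Kcnk1 (r = 0.98), a potassium channel gene. When each array was expressed as its deviation from the treatment mean, the correlations with Sp7 were 0.94, 0.71 and 0.75. Panx3 read 9.67, 9.37 and 9.96 in DMSO, 9.84, 9.73 and 10.15 in LY294002, 10.52, 10.38 and 11.04 in U0126, 8.45, 8.60 and 9.43 in SB202190, and 5.95, 6.65 and 7.92 in Trichostatin A.

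For Mef2c the most alike were Ankrd44 (r = 0.92), Asrgl1 (r = 0.90) and Dot1l (r = 0.90), and for Dlx5 Creb3l2 (r = 0.93), Tmem115 (r = 0.92) and Ajuba (r = 0.92). Among the members, Sp7 correlated most with Runx3 (r = 0.83) and Runx1 (r = 0.76), and Mef2a with Mef2d (r = 0.74), while Sp7 and Mef2d ran in opposite directions (r = -0.63).

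**Figure D5:**
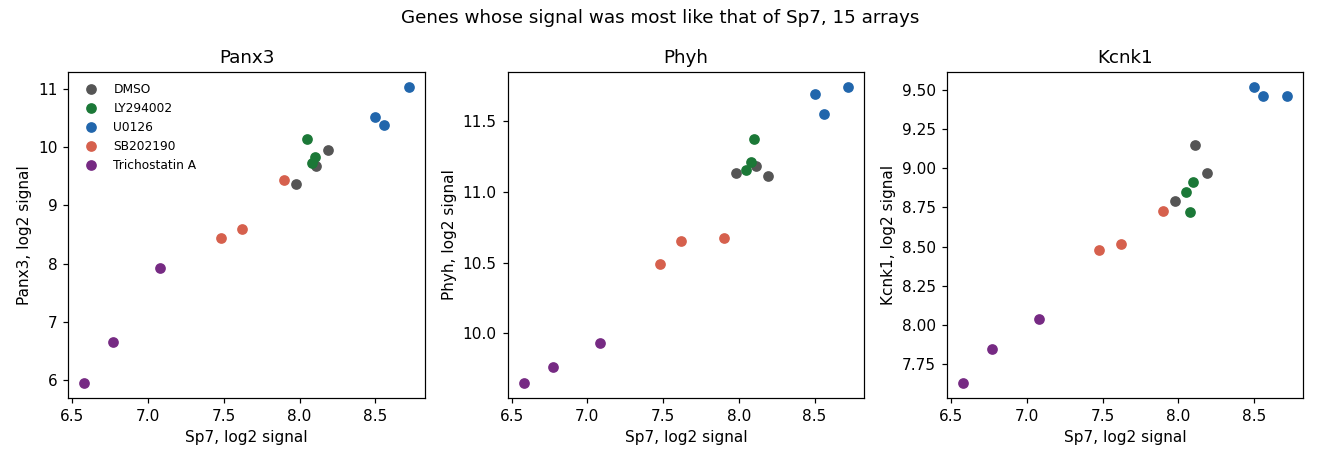
Log2 signal of Panx3, Phyh and Kcnk1 against that of Sp7 on the 15 arrays, coloured by treatment. In each panel the Trichostatin A arrays lie at the lower left and the U0126 arrays at the upper right, with Sp7 from 6.58 to 8.72.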

How the data were processed

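Total RNA was hybridised to Affymetrix mouse expression arrays. The authors deposited a table of log2 signals with a value for each probe set on each array; the study names GC-RMA for this deposit and RMA for its gene set step, which of them made these values was not settled here, and RMA-type summaries shrink low signals. Groups came from the labels. After 64 array controls were left out, 45037 probe sets remained, of which 34945 had 1 symbol. In each comparison, probe sets with a mean of at least log2 of 50 in either group were tested. The 15 arrays were fitted together with limma (version 3.58.1, under R version 4.3.3), each treatment having its own mean (10 residual degrees of freedom) with empirical Bayes moderation and Benjamini-Hochberg adjustment. The number of arrays limits precision, and p-values measure the spread between these experiments. Members were taken by gene symbol, and no measured value decided which probe sets were included. Earlier results of these data were known when members and lists were chosen. The probe set with the highest mean represented a gene. Of each list, up to 3 called genes with the largest change were named; a few others (Cbfb, Alpl and Tnfsf11 among them) were named after their values were seen.

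Deviations of same-numbered arrays from treatment means correlated at 0.748, 0.367 and 0.590 (DMSO and LY294002), 0.695, 0.509 and 0.295 (U0126), 0.224, 0.278 and 0.302 (SB202190) and 0.238, 0.451 and 0.0288 (Trichostatin A). Between Trichostatin A and the inhibitors they were 0.262, 0.234 and -0.110 (LY294002), 0.226, 0.448 and 0.260 (U0126) and 0.250, 0.327 and 0.374 (SB202190). The numbers were taken to pair arrays where all 3 exceeded 0.1, as they also did between the kinase inhibitors. Alternatives were this block, the arrays of the compared groups alone, other filters, quantile normalization, median centring, a trended robust prior, a gene's probe sets averaged, and omission of each array; omission of a replicate number, or of Trichostatin A, was added after seeing the data. The scripts were tested on simulated data. Figures were drawn with matplotlib.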

Additional observations from a re-analysis of the deposited data

How the results depend on the processing

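Of the 69 calls among the member probe sets over the 10 comparisons, all 69 kept their sign in every alternative computed, 26 kept their call in every alternative and 37 when any 1 array was left out. The replicate block kept all 69 and added 24; quantile normalization lost 8, and centring of arrays lost 7. The counts of member probe sets called were 2 for LY294002, 3 for U0126, 0 for SB202190 and 13 for Trichostatin A, each against DMSO, 51 between inhibitors and 19 by the F test. With the replicate block these were 4, 5, 4, 13, 67 and 22. Over all probe sets the block also raised the calls against DMSO, from 2978 to 6370 with LY294002 and from 667 to 1507 with U0126. With SB202190 they went from 669 to 1905 and with Trichostatin A from 15207 to 17896. Calls over all probe sets with the block were not counted between inhibitors or for the F test. With the arrays of the 2 compared groups alone, the counts against DMSO were 0, 0, 0 and 8, and the F test, which needs all treatments, has no such value. Quantile normalization gave 1 for LY294002 and 1 for SB202190, and a signal filter of 100 gave 2 for SB202190. Leaving out each array gave 0 to 3 for LY294002, 0 to 4 for U0126, 0 to 1 for SB202190, 8 to 15 for Trichostatin A, 40 to 53 between inhibitors and 14 to 20 by the F test. The Trichostatin A count was 8 without DMSO replicate 2 and 8 without Trichostatin A replicate 3. In alternatives added after seeing the data, leaving out replicate 1, 2 or 3 in every treatment gave 0, 0 and 0 for each kinase inhibitor, 14, 7 and 6 for Trichostatin A, 38, 25 and 30 between inhibitors and 16, 10 and 10 by the F test; without the Trichostatin A arrays SB202190 had 1 call. Of 28 calls by gene, 22 held with the mean of all probe sets. No sign was reversed. The causes of these shifts were not tested. An alternative scaling moved no median of all probe sets by more than 0.1 on the log2 scale.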
